A study of Mus musculus with 4 samples.

Results

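The ERBB receptors and the growth factors that bind them form a small signalling family, and 10 of its genes were examined in lung cells of mice given bleomycin (BLM) or phosphate-buffered saline (PBS). The list comprised the 4 receptor genes Egfr, Erbb2, Erbb3 and Erbb4 and the 6 ligand genes Areg, Hbegf, Ereg, Btc, Tgfa and Nrg1. For each gene, the brightest array row annotated to that symbol alone was taken (by its mean over the arrays), which gave 9 of the 10 genes among 30142 genes in all, and Areg was not analysed here. Total RNA came from the CD45-negative fraction of C57BL/6 mouse lung, which leaves out cells carrying the pan-leukocyte antigen CD45. Mice had received PBS or BLM by the intratracheal route 10 days earlier. Bleomycin breaks DNA and is widely used to provoke lung fibrosis in rodents. Each group, PBS and BLM, comprised 2 Affymetrix arrays, and no genotype other than the C57BL/6 strain, and no age or sex, is given in the labels. Nothing there says that the arrays of a group came from separate mice, so the spread behind the p-values is that of these samples alone and could be technical.

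The ligands are made as membrane-bound precursors and are set free by metalloproteases, above all ADAM17. Binding makes the receptors pair and phosphorylate each other, which feeds the RAS-ERK and PI3K-AKT pathways. EGFR binds most of the ligands, ERBB2 has no known ligand and acts as a partner, ERBB3 binds neuregulins but signals mainly through its partners, and ERBB4 binds neuregulins and several EGF-type ligands. In the lung these receptors are known for their part in epithelial growth and repair after injury.

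Values are RMA log2 expression, so a difference of 1 is 2-fold, and levels of different genes are not compared because each probe set has its own response. Rose and fell are used of genes with an adjusted p below 0.05 in limma's moderated test over all 30142 genes (n = 2 arrays per group). By that rule 25.3% of all genes differed in either direction, 15.2% rising and 10.1% falling, and the median difference of all genes was 0.05. Rises made up 60.1% of these calls, and 49.6% after cyclic loess scaling. Of the 9 measured genes 7 passed. Among these, 4 rose (Ereg, Hbegf, Nrg1 and Egfr) and 3 fell (Erbb3, Btc and Erbb2). Only Ereg and Erbb3 passed with at least 1 log2 unit, as 5.14% of all genes did. The BLM and PBS values did not overlap for any of the 9, against 63.3% of all genes. The genes were chosen with earlier results of these arrays known, so these counts are a description of the family.

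Over all genes, replicate arrays differed by 0.157 log2 units on average under PBS and by 0.134 under BLM. Xist, the RNA that coats the inactive X chromosome of female cells, lay at 15.86 and 15.61 under PBS and at 5.60 and 5.43 under BLM, and 3 of 3 measured Y-linked genes were higher under BLM. The treatment and this sex-linked split coincide in every comparison given here and cannot be told apart. None of the 9 genes lies on the X or Y chromosome in RefSeq's GRCm38.p6 annotation.

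**Figure D1:**
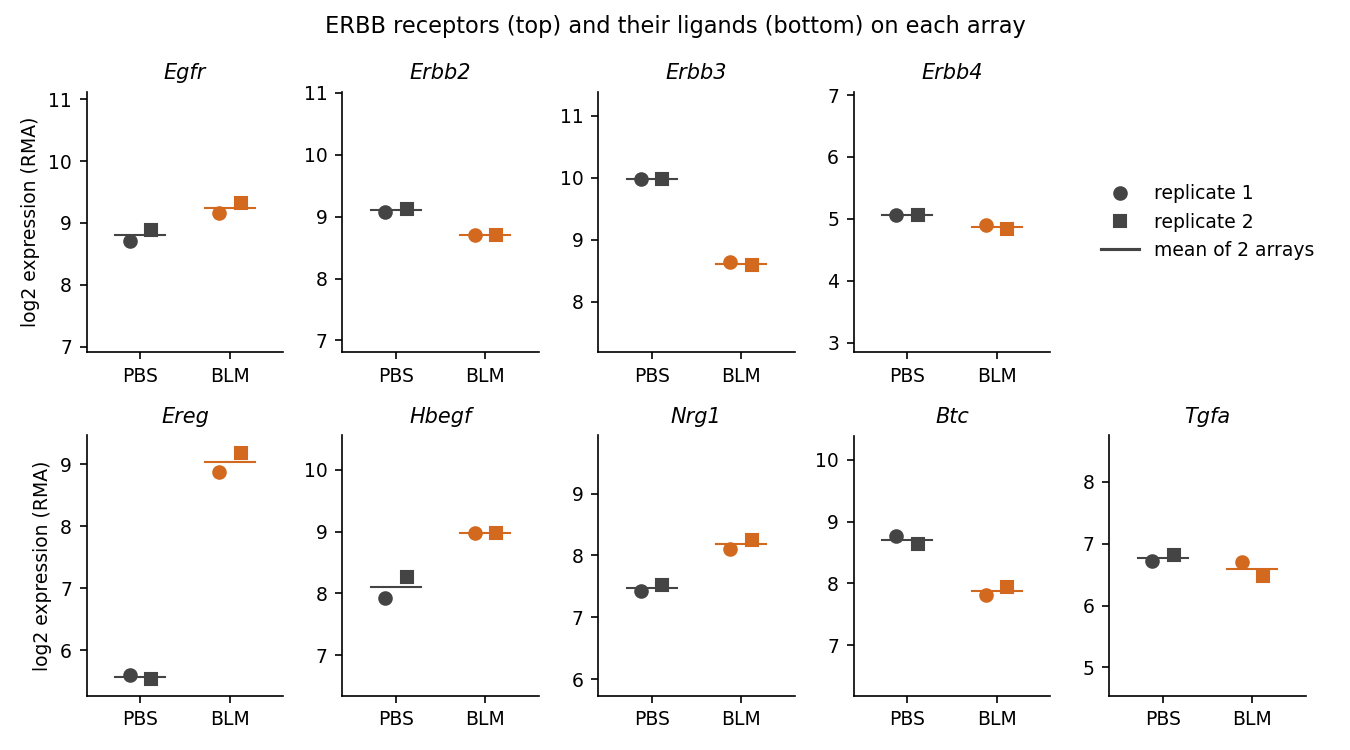
Log2 expression (RMA, vertical axis) of the 4 receptor genes and 5 ligand genes on each PBS and BLM array. Circles and squares are replicates 1 and 2, lines are means of 2 arrays, and all panels span the same number of log2 units. Ereg shows the widest gap between the groups and Tgfa and Erbb4 the narrowest.

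Among the receptors, Erbb3 fell, Erbb2 fell by less, Egfr rose and Erbb4 did not pass. Erbb3, the neuregulin receptor with little kinase activity of its own, lay at 9.97 and 9.98 under PBS and at 8.64 and 8.59 under BLM. Both BLM values were more than 1 log2 unit below both PBS values, and arrays of a group differed by far less. The difference was -1.37 (SE 0.08, 95% interval -1.57 to -1.17, adjusted p = 0.00057 by limma), or 2.58-fold lower. Of all genes, 2.54% showed a larger absolute difference. Leaving out each array in turn gave -1.39 to -1.34, and the call held each time.

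Erbb2, the receptor that serves as the shared partner of the other members, lay at 9.08 and 9.12 under PBS and at 8.70 and 8.70 under BLM. The pairs of values were tight and apart, with a difference of -0.40 (SE 0.08, 95% interval -0.60 to -0.20, adjusted p = 0.0192 by limma). The call ended without any 1 of the arrays, with a limma adjusted p of 0.0532 when PBS replicate 1 was dropped, 0.0655 for PBS replicate 2, 0.107 for BLM replicate 1 and 0.0992 for BLM replicate 2. The size stayed at -0.42 to -0.38 in those fits.

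Egfr, the receptor for EGF itself, was at 8.71 and 8.89 under PBS and at 9.16 and 9.32 under BLM. It was higher on both BLM arrays, with a difference of 0.44 (SE 0.11, 95% interval 0.17 to 0.71, adjusted p = 0.0353 by limma), or 1.36-fold. That call ended when PBS replicate 1 was dropped, at 0.35 (limma adjusted p = 0.116), when BLM replicate 1 was dropped, at 0.52 (limma adjusted p = 0.0773), and when BLM replicate 2 was dropped, at 0.36 (limma adjusted p = 0.163). It also ended with cyclic loess scaling, at 0.35 (limma adjusted p = 0.066). Without PBS replicate 2 it held, at 0.53 (limma adjusted p = 0.0453).

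Erbb4, a second neuregulin receptor, was dim throughout, at 5.07 and 5.06 under PBS and 4.90 and 4.83 under BLM. All 4 values lay below 6.03, the median of all genes' mean levels, where differences are compressed toward 0. It differed by -0.19 (SE 0.08, 95% interval -0.40 to 0.01, adjusted p = 0.15 by limma), so a fall of up to 0.40 on the log2 scale lies within its interval.

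Start-site sequences of Egfr and Erbb2, the receptors that moved in opposite directions, and of Btc, the ligand that fell, are shown so that the regions before these genes can be compared. The table of start-site sequences used here, from RefSeq's GRCm38.p6, gave one for 6 of the 10 genes, these 3 among them. Each line gives the 250 bases before the annotated start, 5′ to 3′ in the gene's direction, for Egfr chr11:16751953-16752202, plus strand, for Erbb2 chr11:98412234-98412483, plus strand and for Btc chr5:91402995-91403244, minus strand. Capitals mark matches to any of 7 motifs on either strand. The letters searched were TGANTCA for AP-1, TGACGTCA for the cyclic AMP response element (CRE), CACGTG for the E-box and GGGCGG for the GC box. The others were CCAAT for the box of the same letters, TATAAA for the box that binds TBP, and GGAATG for the TEAD family. No match overlapped another in these windows.
Egfr: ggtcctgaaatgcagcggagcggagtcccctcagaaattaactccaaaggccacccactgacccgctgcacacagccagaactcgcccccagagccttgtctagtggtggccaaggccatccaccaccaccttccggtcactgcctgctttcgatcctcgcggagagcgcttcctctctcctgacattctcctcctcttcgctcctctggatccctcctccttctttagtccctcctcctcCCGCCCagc
Erbb2: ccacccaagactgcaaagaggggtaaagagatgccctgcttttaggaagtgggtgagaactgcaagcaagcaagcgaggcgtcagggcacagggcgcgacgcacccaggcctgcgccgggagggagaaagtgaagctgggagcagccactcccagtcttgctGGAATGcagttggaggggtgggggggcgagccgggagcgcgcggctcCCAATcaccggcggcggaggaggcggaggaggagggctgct
Btc: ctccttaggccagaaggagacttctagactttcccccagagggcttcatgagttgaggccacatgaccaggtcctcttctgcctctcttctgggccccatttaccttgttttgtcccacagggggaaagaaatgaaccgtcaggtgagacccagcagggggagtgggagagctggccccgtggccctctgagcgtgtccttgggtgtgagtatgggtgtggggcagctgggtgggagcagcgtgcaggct
The Egfr window held 1 GC box, found in 32.7% of 32851 windows of the same length in the table. The Erbb2 window held 1 CCAAT box (33.8% of windows) and 1 TEAD motif (12.6%). The Btc window held none of the 7 motifs, and AP-1, CRE, E-box and TBP motifs, present in 6.75%, 1.55%, 6.02% and 12.4% of windows, were in none of the 3. The G and C share was 60.8% for Egfr, 66% for Erbb2 and 59.6% for Btc, all above the median of 52.4%. Motif matches are a description of these letters, not binding sites.

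Among the ligands, Ereg, Hbegf and Nrg1 rose, Btc fell and Tgfa did not pass. Ereg encodes epiregulin, a ligand of EGFR and ERBB4 made in injured and inflamed tissue. It was at 5.60 and 5.54 under PBS and at 8.87 and 9.19 under BLM. Its PBS values were below the level of the median gene (6.03) and its BLM values well above it, so the size of the difference is not exact. The difference was 3.46 (SE 0.13, 95% interval 3.14 to 3.77, adjusted p = 0.000287 by limma), or 11.0-fold, and 0.0763% of all genes showed a larger absolute difference. It was 3.30 to 3.61 without each array in turn. A second row annotated to Ereg lay at 4.98 and 4.86 under PBS and at 4.97 and 5.44 under BLM, where the groups overlapped. That second row differed by 0.29 and showed no clear rise. The mean of both rows differed by 1.87 (adjusted p = 0.00122 by limma), so the size depends on which rows are used.

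Hbegf encodes heparin-binding EGF-like growth factor, which is also shed by ADAM17 and binds EGFR and ERBB4. It lay at 7.92 and 8.27 under PBS and at 8.98 and 8.97 under BLM. The PBS arrays were further apart than those of any other member in either group, yet both lay below the BLM arrays. The difference was 0.88 (SE 0.13, 95% interval 0.54 to 1.21, adjusted p = 0.00803 by limma), or 1.84-fold, and 0.70 to 1.05 without each array in turn.

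Nrg1 encodes neuregulin 1, the ligand of ERBB3 and ERBB4. It was at 7.43 and 7.52 under PBS and at 8.11 and 8.24 under BLM, higher on both, with a difference of 0.70 (SE 0.09, 95% interval 0.47 to 0.94, adjusted p = 0.00522 by limma). The ligand thus rose 1.63-fold on the arrays where Erbb3 was lower, and a link between these values was not tested. A second, dimmer Nrg1 row at 3.90 and 3.96 against 3.94 and 3.73 differed by -0.09. With the mean of both rows the difference was 0.31 and stayed just past the threshold (adjusted p = 0.049 by limma).

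Btc encodes betacellulin, a ligand of EGFR and ERBB4. It was the only measured ligand of the 5 to fall, from 8.76 and 8.64 under PBS to 7.82 and 7.94 under BLM. The difference was -0.83 (SE 0.09, 95% interval -1.06 to -0.59, adjusted p = 0.00337 by limma), or 1.77-fold lower. Its range without each array in turn was -0.89 to -0.76, and the call held each time.

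Tgfa encodes transforming growth factor alpha, an EGFR ligand. It was at 6.72 and 6.81 under PBS and at 6.70 and 6.48 under BLM. The nearest values of the groups almost touched. The difference of -0.18 (SE 0.11, 95% interval -0.45 to 0.09, adjusted p = 0.294 by limma) did not pass.

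None of the other 5 ligand genes of the family passed, and none had an unadjusted limma p below 0.05. Egf, the founding ligand, was at 4.76 and 4.68 against 4.79 and 4.86 (difference 0.10, 95% interval -0.12 to 0.32). Epgn, encoding epigen, differed by 0.05, Nrg2 by 0.13, Nrg3 by 0.03 (-0.04 without PBS replicate 2 and -0.0155 with cyclic loess) and Nrg4 by 0.08. All but Nrg2 were dimmer than the median gene, where small differences cannot be resolved, so these values do not show that the genes were equal in both groups.

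**Figure D2:**
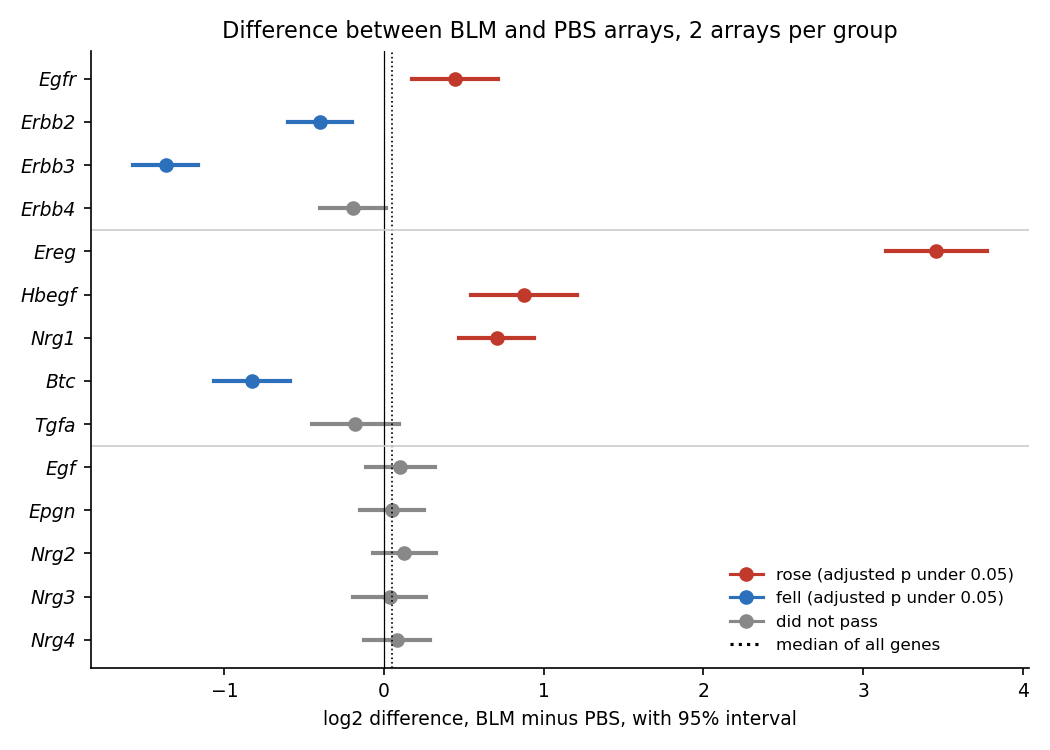
Log2 difference, BLM minus PBS (horizontal axis), with its 95% interval from limma for the receptors (top), the measured ligands (middle) and the other EGF-type ligands (bottom), 2 arrays per group. Ereg stands at 3.46 and Erbb3 at -1.37, and the 5 genes at the bottom lie within 0.13 of 0.

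Marker genes of lung cell types moved on the same arrays. Their counts are to be read beside 15.2% of all genes rising and 10.1% falling. Epithelium is a known site of Erbb3 and Erbb2 expression. Of 10 alveolar type 2 markers 9 fell and none rose. Their mean log2 level was 16.49 and 16.44 under PBS and 15.47 and 15.37 under BLM. Sftpc, the surfactant protein C gene, differed by 0.12 (adjusted p = 0.519 by limma). It lay at 19.56 and 19.87 under PBS and at 19.86 and 19.82 under BLM. The highest values of the arrays were 19.56 to 19.91, so a change in Sftpc could go unseen at this level. All 7 measured markers of club and ciliated airway cells fell, with means of 13.74 and 13.69 against 11.94 and 12.03. The general epithelial markers Epcam and Cdh1 fell by 0.96 and 0.69 on the log2 scale. Krt18 and Krt19 rose by 0.30 and 0.34, and 3 of the 7 did not pass (means 12.62 and 12.57 against 12.43 and 12.34). With cyclic loess scaling Krt18 and Krt19 stood at 0.12 and 0.15 and no longer passed (adjusted p = 0.323 and 0.22 by limma). Nkx2-1, another of the 7, passed there as a fall, at -0.43 (adjusted p = 0.0457 by limma). Krt18 and Krt19 also lost their calls whichever array was dropped. Of 8 alveolar type 1 markers 2 rose, none fell and 6 did not pass. Of 6 basal cell markers, 1 rose, 1 fell and 4 did not pass. So few calls set no direction for either list. The alveolar type 2 and airway lists were thus lower on the arrays where Erbb3, Erbb2 and Btc were lower. The general epithelial list had 2 rises and 2 falls in the main fit. The part of any of these cells in the values of Erbb3, Erbb2 and Btc was not tested. In a bulk sample, fewer cells of a type and less RNA per cell cannot be told apart.

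Leukocyte markers were measured because the fraction is labelled CD45-negative, and the lists differed in direction. The counts again stand beside 15.2% of all genes rising and 10.1% falling, and short lists with few calls set no direction. Ptprc, which encodes CD45 itself, was at 6.30 and 6.21 under PBS and at 7.19 and 7.20 under BLM (difference 0.94, SE 0.08, adjusted p = 0.00166 by limma), its PBS values being just above the 6.03 of the median gene. Of 6 general leukocyte markers 4 rose and none fell, with Cd52 dim and means of 6.47 and 6.35 against 7.38 and 7.50. Of 10 macrophage markers 7 rose and 1 fell, with a mean level of 7.89 and 7.88 against 8.98 and 8.99, and only Siglecf below the median level. Of 5 neutrophil markers 2 rose, with S100a8 and Csf3r dim and means of 5.77 and 5.74 against 6.11 and 6.14. Of 6 mast cell and basophil markers 4 fell and 1 rose, with means of 7.76 and 7.73 against 6.74 and 6.71. Macrophages and other leukocytes can make Ereg and Hbegf, and the part of these markers in the rise of both ligands was not tested. Of 7 measured T cell and innate lymphoid markers 2 rose and 1 fell, and all but Rora were dim, as were all 3 measured B cell markers, none of which passed. Cd3g, a T cell marker that rose, stood at 0.27 with cyclic loess and did not pass there (adjusted p = 0.0578 by limma).

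Fibroblast markers rose in 6 of 7 cases, beside 15.2% of all genes rising and 10.1% falling. Their mean level was 10.49 and 10.57 against 12.89 and 12.82, with Col1a1, a collagen gene, higher by 4.28 (SE 0.08). Mesothelial markers rose in 4 of 5 cases, with means of 7.21 and 7.50 against 8.06 and 8.09. Krt19, which did not pass with cyclic loess, is among them. Endothelial markers rose in 3 of 7 cases and fell in 1, with Pecam1 at 0.21 (adjusted p = 0.146 by limma). Smooth muscle markers rose in 1 of 5 cases and fell in 2. With cyclic loess the endothelial gene Kdr, at 0.26, no longer passed (adjusted p = 0.0991 by limma), while Tek passed at -0.44 (0.0411). Des, the smooth muscle gene that rose, no longer passed either, at 0.22 (0.13). Without each array in turn, Kdr stood at 0.33 to 0.52, Des at 0.30 to 0.40 and Cnn1, which fell, at -0.52 to -0.31. Each of these genes lost its call whichever array was dropped. The fibroblast and mesothelial lists were thus higher on the arrays where Egfr, Nrg1, Ereg and Hbegf were higher. The part of any of these cell types in those values was not tested.

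**Figure D3:**
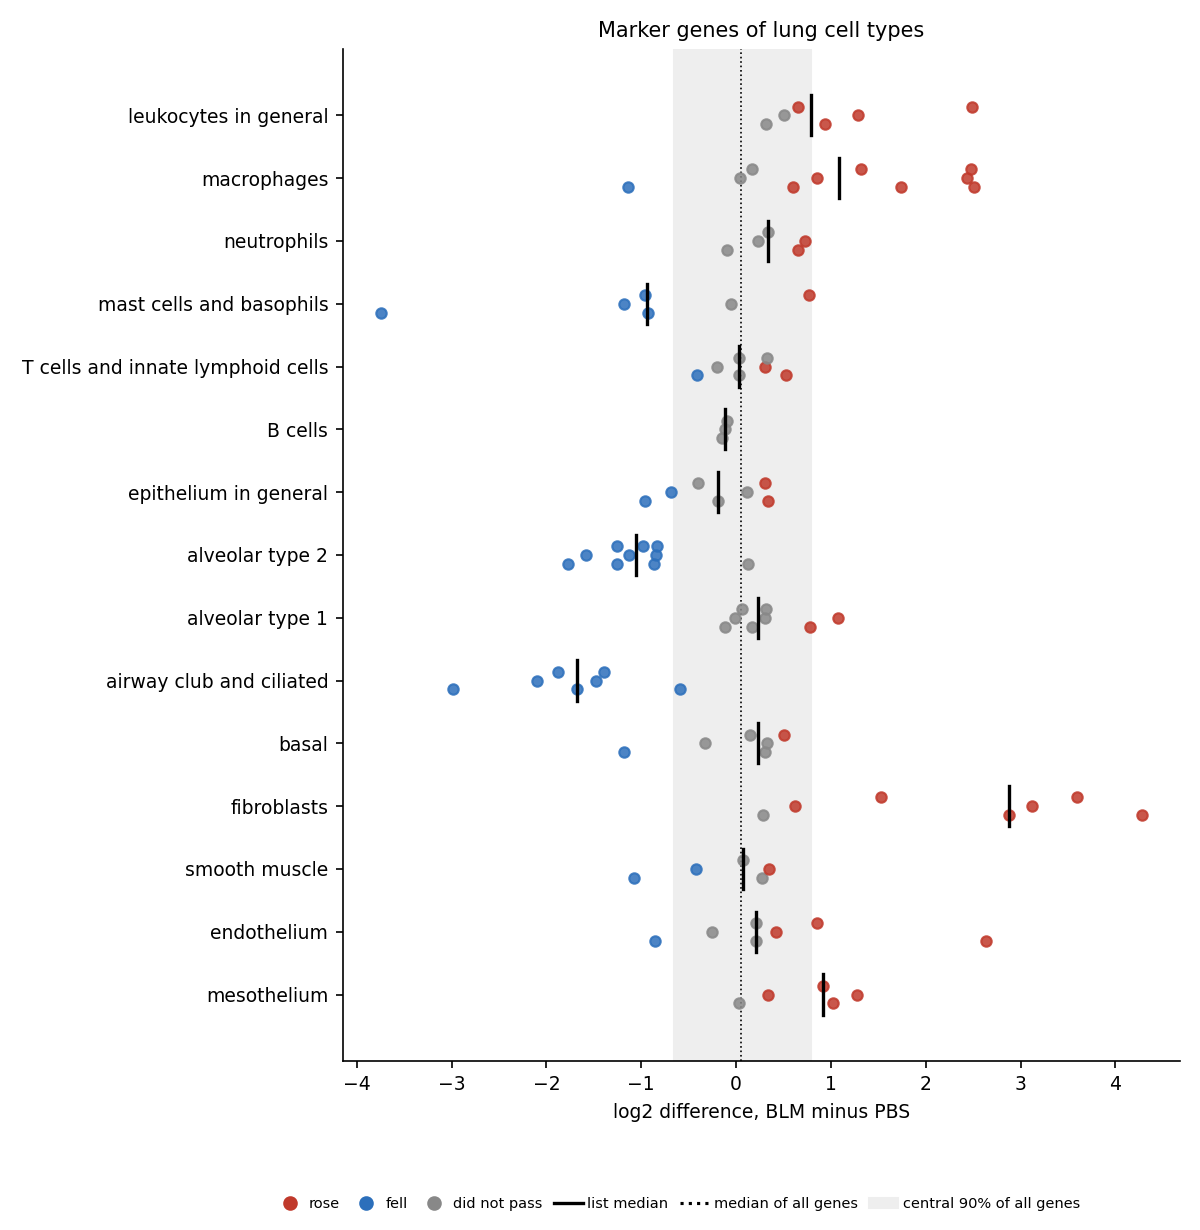
Log2 difference, BLM minus PBS (horizontal axis), of each marker gene, by cell type. Points are genes, coloured by whether they rose, fell or did not pass, black bars are list medians, the dotted line is the median of all genes and the grey band holds the central 90% of them. Alveolar type 2 and airway markers lie to the left of 0 apart from Sftpc, and fibroblast and most macrophage markers to the right.

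The genes that set ligands free and that carry or restrain the signal were described by role, by how many of each list passed beside 15.2% of all genes rising and 10.1% falling. Of 11 measured genes of ligand release, 5 rose and 1 fell, with a median difference of 0.33, and 5 did not pass. Once BLM replicate 2 was dropped, 3 rose and none fell. Adam10, a sheddase of betacellulin and of EGF, was at 9.80 and 10.04 under PBS and at 11.16 and 11.07 under BLM, a rise of 1.20 (SE 0.11, adjusted p = 0.00185 by limma). Adam10 was thus higher on the arrays where its substrate gene Btc was lower, as any gene that rose must be. Whether these values are linked was not tested. Bace1, Adam15 and Adam9, other membrane proteases, rose by 0.75, 0.73 and 0.56. Dropping BLM replicate 2 ended the call of Adam9 (limma adjusted p = 0.0643).

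Adam17, the main sheddase of Hbegf, Ereg and Tgfa, was at 9.91 and 9.85 against 10.41 and 10.31, a rise of 0.48 (SE 0.09, adjusted p = 0.0141 by limma). Its call ended when PBS replicate 2 was dropped (adjusted p = 0.0532 by limma), and likewise for BLM replicate 1 at 0.0913 and BLM replicate 2 at 0.0528. Rhbdf1 and Rhbdf2 encode the iRhom proteins that bring ADAM17 to the cell surface, and stood at 0.33 (adjusted p = 0.0662 by limma) and -0.01 (0.95). Rhbdf1 passed under the filter on dim genes (limma adjusted p = 0.029) and with the trended, robust prior (0.0453). Rhbdf2 was at -0.09 without PBS replicate 1 and 0.07 without PBS replicate 2, so its sign is not settled.

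Of 15 genes that restrain the receptors, 5 rose, 2 fell and 8 did not pass, and the median difference was 0.05, near that of all genes. With median centring 1 rose and 2 fell, and with cyclic loess 2 rose and 2 fell, so the larger number of rises depended on the scaling. Without 1 array at a time only 2 or 3 passed. Errfi1, encoding an inhibitor that binds the kinase domain of EGFR and is itself induced by EGFR signalling, was at 13.01 and 12.98 under PBS and at 11.88 and 12.02 under BLM. It fell by 1.05 on the log2 scale (SE 0.09, adjusted p = 0.00153 by limma), and by 0.98 to 1.12 without each array in turn. Errfi1 was thus lower on the arrays where Ereg and Hbegf were higher, as any gene that fell must be. A link between these values was not tested. Cblb, a ubiquitin ligase that sends activated receptors to degradation, rose by 0.65 (SE 0.09, adjusted p = 0.00575 by limma).

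Its relative Cbl rose by 0.52 (0.67 in a second, dimmer row) and Socs5, another adaptor of receptor degradation, by 0.38. Cbl lost its call without PBS replicate 1 (0.49), PBS replicate 2 (0.55) or BLM replicate 2 (0.34), and Socs5 without PBS replicate 1 (0.31), BLM replicate 1 (0.41) or BLM replicate 2 (0.35). Both also lost it with median centring, and Cbl with cyclic loess (0.34). Lrig1, a membrane protein that promotes receptor turnover, stood at -0.24 (adjusted p = 0.159 by limma).

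Of 21 measured adaptors and kinases of the RAS-ERK and PI3K-AKT pathways, 3 rose, 3 fell and 15 did not pass, a share of calls near that of all genes, with a median of 0.08. The even split depended on the scaling and the filter, since 1 rose and 8 fell with cyclic loess, 4 rose and 7 fell once dim genes were filtered out, and 4 rose and 6 fell with the trended, robust prior. The count was 1 when either BLM array was dropped and 3 without PBS replicate 2. Grb7, an adaptor that binds phosphorylated ERBB receptors, fell from 9.45 and 9.54 to 8.12 and 8.15, a difference of -1.36 (SE 0.08, adjusted p = 0.000638 by limma). The kinase gene Braf stood at -0.57, the PI3K subunit gene Pik3r1 at 0.56 and the docking protein gene Gab1 at -0.48. Braf and Pik3r1 lost their calls without BLM replicate 1 or 2 (adjusted p up to 0.0682 and 0.0615 by limma), and Gab1 without PBS replicate 2 or either BLM array (up to 0.176) and with the replicate number as a block (0.0689).

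Genes known to respond to ERK signalling changed in either direction. Among 22 with a value, 10 rose and 6 fell, with a median of 0.23, and 6 did not pass. Once BLM replicate 2 was dropped, 6 rose and 2 fell. Plaur, the urokinase receptor gene, rose from 8.94 and 9.26 to 10.86 and 10.99, by 1.82 (SE 0.13, adjusted p = 0.000952 by limma). Dusp6 and Spry4, feedback inhibitors of the ERK cascade, rose by 1.59 (SE 0.12) and 1.33 (SE 0.09). Spry1 and Spry2, of the same Sprouty family and named after their values were seen, stood at -0.50 and -0.45 (adjusted p = 0.00994 and 0.018 by limma). Spry1 lost its call when either BLM array was dropped, at -0.48 and -0.53, and Spry2 when PBS replicate 2 or either BLM array was dropped, at -0.40, -0.41 and -0.48. Etv5, an ETS factor gene also used as an alveolar type 2 marker, went the other way, from 11.53 and 11.36 to 9.65 and 9.69, a fall of 1.78 on the log2 scale (SE 0.09, adjusted p = 0.000482 by limma).

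Of 7 co-receptors and surface partners, 2 rose, 4 fell and 1 did not pass, with a median of -0.50. Met, the hepatocyte growth factor receptor known to work with ERBB3, fell from 10.16 and 10.23 to 8.78 and 8.72, by 1.45 on the log2 scale (SE 0.08, adjusted p = 0.000549 by limma). Sdc4, a heparan sulfate proteoglycan gene, stood at -0.77 (SE 0.09). Cd44, a surface receptor that presents heparin-binding ligands, and Gpc1, a glypican gene, rose by 1.13 (SE 0.09) and 0.92 (SE 0.09).

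**Figure D4:**
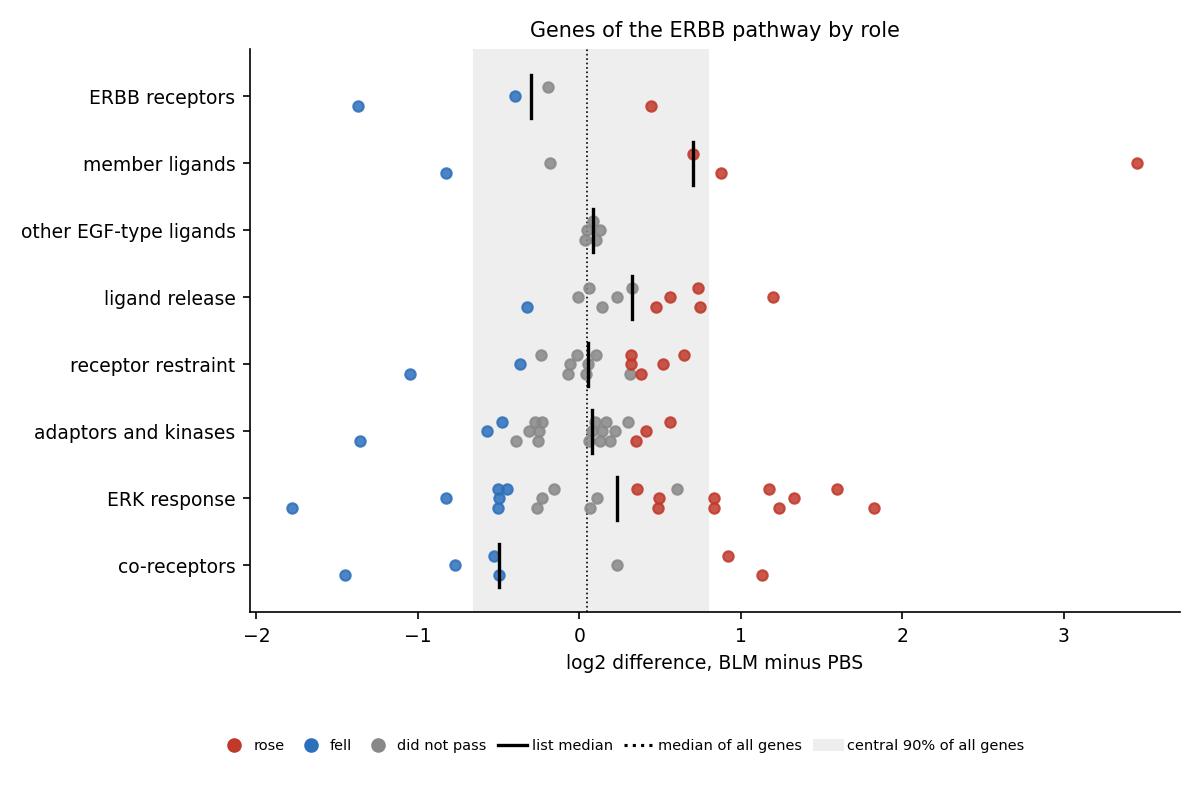
Log2 difference, BLM minus PBS (horizontal axis), of each gene, grouped by its role around the ERBB receptors. Points are genes, coloured by whether they rose, fell or did not pass, black bars are list medians, the dotted line is the median of all genes and the grey band holds the central 90% of them. The ERK response genes spread from -1.78 (Etv5) to 1.82 (Plaur), and Ereg lies furthest to the right.

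Several members have another ERBB pathway gene next to them in the genome. In RefSeq's gene order, Epgn, Ereg, Areg and Btc follow each other among protein-coding genes. Areg, between Ereg and Btc, was not analysed, and the values of the others did not move as a block. Ereg rose by 3.46, Btc fell by 0.83 on the log2 scale and Epgn stood at 0.05. The neighbours that belong to no list were chosen for mention after their values were seen. Beyond Btc, Parm1, Rchy1 and Odaph rose by 0.50, 0.61 and 0.53. Before Epgn, Mthfd2l differed by 0.06 and the chemokine gene Cxcl2 rose by 1.62 (SE 0.23, adjusted p = 0.00716 by limma). Erbb2 and Grb7, whose products bind each other, are separated by a single protein-coding gene, Mien1. Both fell, by 0.40 and 1.36 on the log2 scale, while Mien1 between them rose from 10.82 and 10.80 to 11.66 and 11.63, by 0.84 (SE 0.08, adjusted p = 0.00199 by limma). Of 44 measured genes within 3 positions of any member that were no members themselves, 10 rose, 7 fell and 27 did not pass. Over all genes 15.2% rose and 10.1% fell. The 44 include the pathway genes Epgn and Grb7, and why neighbours changed was not tested.

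**Figure D5:**
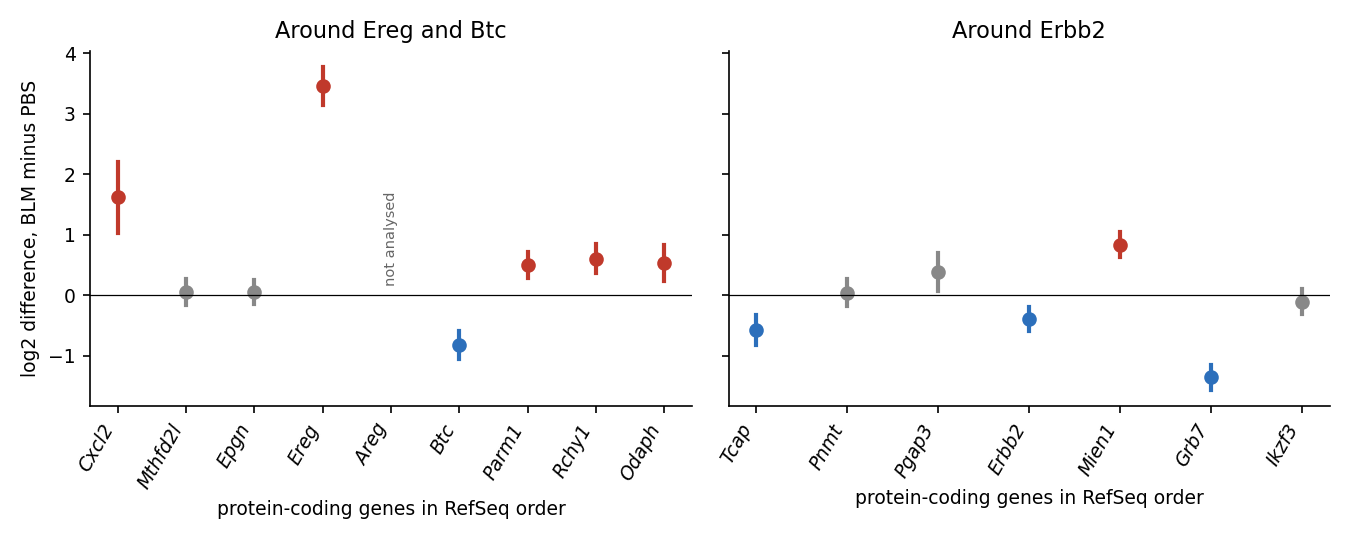
Log2 difference, BLM minus PBS (vertical axis), with its 95% interval, for protein-coding genes in RefSeq order around Ereg and Btc (left) and around Erbb2 (right). Red points rose, blue points fell and grey points did not pass. Ereg at 3.46 and Btc at -0.83 point in opposite directions, as do Mien1 at 0.84 and Grb7 at -1.36.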

How the data were processed

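The authors deposited 1 log2 value per transcript cluster and array, computed by RMA in Affymetrix Expression Console according to the submitters' processing notes. Program versions and the genome build were not given in the sources used here. Each array holds 571 to 617 clusters with values over 16, more than a 16-bit scanner can give in log2, which points to some further, unstated scaling. No detection calls were used. Of 65956 clusters, 30604 had 1 gene symbol in the platform annotation. Symbols were updated through Entrez identifiers (827 changed), and the highest-mean row per gene left 30142 genes. The test was limma 3.58.1 (R 4.3.3; lmFit, eBayes, two-sided) on all 4 arrays, with Benjamini-Hochberg adjustment over all genes, 2 residual and 3.33 prior degrees of freedom. The number of arrays limits the precision: the median SE was 0.0969 and the smallest difference called was 0.291. The script was tested on simulated data. It called 1.49% of genes changed by 0.5 log2 units, 65.7% of those changed by 1 and 98.5% of those changed by 2. Far fewer genes changed there than passed in these data, which makes the adjustment stricter.

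Members and lists were chosen with earlier results of these data known. Named genes were all members, the other ligands, Adam17, Rhbdf1, Rhbdf2, Errfi1 and Lrig1, up to 4 called genes of each other list with the largest differences, and fixed markers. Alternatives were dropping each array, the replicate block, removing dim genes, averaging a gene's rows, a trended robust prior, median centring and cyclic loess.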

Additional observations from a re-analysis of the deposited data

How the results depend on the processing

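Erbb3, Ereg, Hbegf, Nrg1 and Btc kept their direction and call under every alternative run, and Erbb4 and Tgfa kept their direction and stayed uncalled wherever they were tested; Erbb4 was not in the fit with the filter on dim genes. Egfr lost its call with cyclic loess (0.35), and ranged from 0.35 to 0.53 when each array was left out. Erbb2 ranged from -0.42 to -0.38 there. Nrg3 turned to -0.0155 with cyclic loess and ranged from -0.041 to 0.11 when each array was left out. When each array was left out, the count of called genes was 4003 to 5956 against 7629, that of receptors 1 to 2 against 3, ligand release 3 to 5 against 6, receptor restraint 2 to 3 against 7, adaptors and kinases 1 to 5 against 6 and ERK response 8 to 13 against 16. A fit without 1 array has fewer samples. Receptor restraint had 4 calls with the replicate block, 3 with median centring (1 rose, 2 fell) and 4 with cyclic loess (2 rose, 2 fell). Adaptors and kinases had 11 with the filter on dim genes (4 rose, 7 fell), 10 with the trended robust prior (4 rose, 6 fell) and 9 with cyclic loess (1 rose, 8 fell); the cause was not tested. Calls that were higher in BLM made up 60.1% of all calls, against 49.6% with cyclic loess. Deviations of same-numbered arrays correlated at 0.014 across genes, so no shift shared by replicate number was seen. A correlation near 0 cannot show that these arrays had nothing in common in handling. With the replicate block 6742 genes passed, and no member's call changed. Levels below the median of all genes limit what can be said of Erbb4, Egf, Epgn, Nrg3 and Nrg4. Counts for the marker lists were taken from the main fit alone.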
